A study of Mus musculus with 6 samples.

Results

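The genes whose products move calcium into the sarcoplasmic reticulum, hold it there or buffer it in the cytosol were followed in mouse myoblasts, 10 genes in all. They are the pumps Atp2a1 and Atp2a2, the pump inhibitor Sln, the store proteins Casq1, Casq2, Srl and Hrc, the cytosolic buffer Pvalb, the scaffold Jsrp1 and the store sensor Stim1. Every probe set annotated to 1 of these symbols and to no other was taken, which gave 17 probe sets for 10 genes, among 45101 probe sets and 18194 named genes in all. The cells were primary mouse myoblasts, the precursors that fuse into muscle fibres, and each of the 6 arrays (an Affymetrix whole-genome mouse array) gives 1 log2 signal per probe set. In 3 samples the myoblasts were treated with LncMyoD shRNA, hairpin RNAs delivered by lentivirus in a Tet-pLKO-puro vector against the long non-coding RNA LncMyoD, and 3 samples were control myoblasts. All 6 samples carry an age of 21 days, and neither a strain nor a differentiation time is given in the labels. The labels name a growth and a differentiation medium without saying which one the profiled cells were in, and they state neither the number of hairpins, nor whether the Tet promoter was induced, nor what the controls received. Levels of muscle markers in both groups are given below. The level of LncMyoD itself was not analysed here, since none of the named probe sets carries it, and the groups rest on their labels.

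In a muscle cell, calcium leaves the sarcoplasmic reticulum through release channels, starts contraction and is pumped back by the SERCA ATPases, which Atp2a1 (fast muscle) and Atp2a2 (slow and cardiac muscle, and other tissues) encode. Small membrane peptides such as sarcolipin and phospholamban restrain these pumps. Inside the store, calsequestrins and other acidic proteins bind the calcium, and when the store empties STIM proteins open ORAI channels in the surface membrane. Myoblasts switch on most of this apparatus as they differentiate.

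Signals of all 6 arrays shared a median of 7.23, arrays correlated across probe sets at 0.996 to 0.997 within a group and 0.987 to 0.990 between groups. With 3 arrays on each side, precision is limited by their number. Of the 8 skeletal muscle markers, all were above the dim limit described below, with a summed linear signal of 90432 to 93642 in shRNA arrays and 93085 to 97871 in control arrays. Of the 8 markers, 4 were lower in the shRNA samples, 1 was higher and 3 did not pass the test described below. The 4 were Ckm (-1.41 on the log2 scale), Mymk (-0.24), Myog (-0.13) and Acta1 (-0.09). Cdh15 was higher (0.40), and Myod1 (0.02), Des (0.03) and Tnnt3 (0.02) did not pass. Muscle genes were bright in both groups. Acta1 averaged 13.98 in shRNA samples and 14.07 in controls, Tnnt3 14.12 and 14.10, and Mymk 13.30 and 13.54, where the highest value of any probe set was 14.64. Ckm was the dimmest of the 8, at 9.11 in shRNA samples and 10.53 in controls. The cells of both groups thus expressed muscle genes strongly, and how far they had differentiated was not tested. By the same test 22.8% of all genes were lower and 35.7% higher. All 4 endothelial markers (Pecam1, Cdh5, Kdr, Tek) and all 4 cardiomyocyte markers (Myh6, Nppa, Myl7, Tnni3) lay below the dim limit in the mean, as did Adipoq and Fabp4 of adipocytes and Sox10 of Schwann cells. The cardiomyocyte sum was 188 to 216 in shRNA arrays and 230 to 247 in controls. Of the other lists, 3 of 6 fibroblast, 2 of 4 leukocyte and 2 of 3 smooth muscle markers lay above it, with Dcn, Lum, Thy1, Ptprc, Cd3e and Cnn1 below it. The fibroblast sum was 505 to 585 in shRNA arrays and 479 to 502 in controls. Its markers above the limit moved both ways, Pdgfra by 0.89, Col1a1 by -0.42 and Tcf21 by 0.11 on the log2 scale. The leukocyte sum was 283 to 332 in shRNA arrays and 263 to 297 in controls, and the smooth muscle sum 1502 to 1577 in shRNA arrays and 1970 to 2097 in controls. The smooth muscle sum is mostly Smtn, which averaged 10.39 in shRNA samples and 10.84 in controls. Myh11, the other smooth muscle marker above the limit, differed by 0.17 on the log2 scale and did not pass the test. The ratio of 3' to 5' signal, a sign of RNA integrity, was 0.0437 (actin) and 0.0848 (GAPDH) higher in shRNA arrays on the log2 scale (exact permutation test, two-sided, p = 0.1 each, the smallest that 20 assignments of arrays allow). The part of these marker and RNA differences in the results was not tested. In RNA from whole cultures, fewer cells that express a gene and less of its RNA per cell cannot be told apart.

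Of the genes that fell, 5 have an entry in the RefSeq promoter table (assembly GRCm38.p6), and their promoters, 250 bases before to 50 after the start, are shown because they fell together. Capitals mark CAGCTG, a form of the E-box (CANNTG) that MyoD and myogenin are known to bind, and the MEF2 motif, bound by another family of muscle transcription factors. Both strands were searched, CAGCTG reads the same on both, and every CAGCTG is also a CANNTG.
Atp2a1 (chr7:126463024-126463323, minus strand): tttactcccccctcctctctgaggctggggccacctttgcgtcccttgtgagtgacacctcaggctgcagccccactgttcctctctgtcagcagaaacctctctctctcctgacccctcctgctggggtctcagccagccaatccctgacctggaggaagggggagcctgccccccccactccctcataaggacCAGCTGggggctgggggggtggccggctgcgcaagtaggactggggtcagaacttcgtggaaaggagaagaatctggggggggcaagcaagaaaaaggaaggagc
Casq1 (chr1:172219846-172220145, minus strand): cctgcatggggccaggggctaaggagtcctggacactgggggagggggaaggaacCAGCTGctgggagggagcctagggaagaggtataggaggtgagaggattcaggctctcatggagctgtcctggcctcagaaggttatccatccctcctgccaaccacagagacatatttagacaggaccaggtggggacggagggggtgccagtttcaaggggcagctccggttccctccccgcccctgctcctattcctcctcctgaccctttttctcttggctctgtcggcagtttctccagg
Hrc (chr7:45335019-45335318, plus strand): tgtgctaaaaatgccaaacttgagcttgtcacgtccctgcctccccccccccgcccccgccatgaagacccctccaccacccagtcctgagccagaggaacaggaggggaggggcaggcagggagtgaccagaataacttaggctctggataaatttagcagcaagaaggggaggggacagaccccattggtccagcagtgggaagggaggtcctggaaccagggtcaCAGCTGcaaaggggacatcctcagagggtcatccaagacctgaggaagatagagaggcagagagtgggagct
Casq2 (chr3:102086165-102086464, plus strand): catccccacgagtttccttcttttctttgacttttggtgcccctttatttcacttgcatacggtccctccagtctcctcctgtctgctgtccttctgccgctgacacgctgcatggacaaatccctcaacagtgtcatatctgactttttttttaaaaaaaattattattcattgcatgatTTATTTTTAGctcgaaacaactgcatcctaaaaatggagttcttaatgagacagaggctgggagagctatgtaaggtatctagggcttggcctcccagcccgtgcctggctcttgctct
Pvalb (chr15:78206351-78206650, minus strand): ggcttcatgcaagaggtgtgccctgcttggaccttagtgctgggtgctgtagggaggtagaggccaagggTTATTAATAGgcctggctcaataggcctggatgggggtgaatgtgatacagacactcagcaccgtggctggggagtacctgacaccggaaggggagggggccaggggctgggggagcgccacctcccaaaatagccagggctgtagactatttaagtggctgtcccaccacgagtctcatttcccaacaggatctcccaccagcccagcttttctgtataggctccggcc
CAGCTG begins 55 bases before the start of Atp2a1, 195 before that of Casq1 and 22 before that of Hrc, and MEF2 letters begin 69 bases before the start of Casq2 and 180 before that of Pvalb. The Pvalb window shown is the more upstream of 2 in the table, and the other holds neither CAGCTG nor MEF2 letters. Of the 10 genes 6 matched the table, with 7 promoters, of which 3 (42.9%) hold CAGCTG, against 16.3% of all 32851 promoters. MEF2 letters are in 2 of 7 (28.6%), against 3.19% of all promoters, and the general E-box is in 6 of 7 (85.7%), against 72.3%. The remaining matched gene, Stim1, holds neither CAGCTG nor MEF2 letters in its window. The unmatched genes were Atp2a2, Sln, Srl and Jsrp1. These are matches of letters in a short window and show neither binding nor a cause.

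Probe sets were tested where their mean over the 6 arrays was not among the lowest 40%, which left 27023 (lowest mean kept, 6.502 log2 units). Of the 17 probe sets 15 were tested, and each gene had at least 1 of them. In the shRNA samples 10 of 15 were lower, 2 were higher and 3 did not pass limma's adjusted p of 0.05. Over all tested probe sets, 23.5% were lower and 30.4% higher, 53.9% in either direction. With the arrays centred on the median of the tested probe sets, the counts over all probe sets turned from 8213 higher and 6352 lower to 6673 higher and 8166 lower, and those of the 15 to 1 higher and 11 lower. The median difference of the 15 was -0.50 on the log2 scale, against 0.02 over all tested probe sets. Atp2a2 supplied 4 of the 10 that were lower, so these are not 10 separate genes. With each gene read on its brightest tested probe set, 6 of 10 genes were lower and 2 higher, against 22.8% and 35.7% of all genes and 58.5% in either direction. Atp2a2 was not among those 6, because its brightest probe set is the only 1 of its tested probe sets that did not fall.

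**Figure D1:**
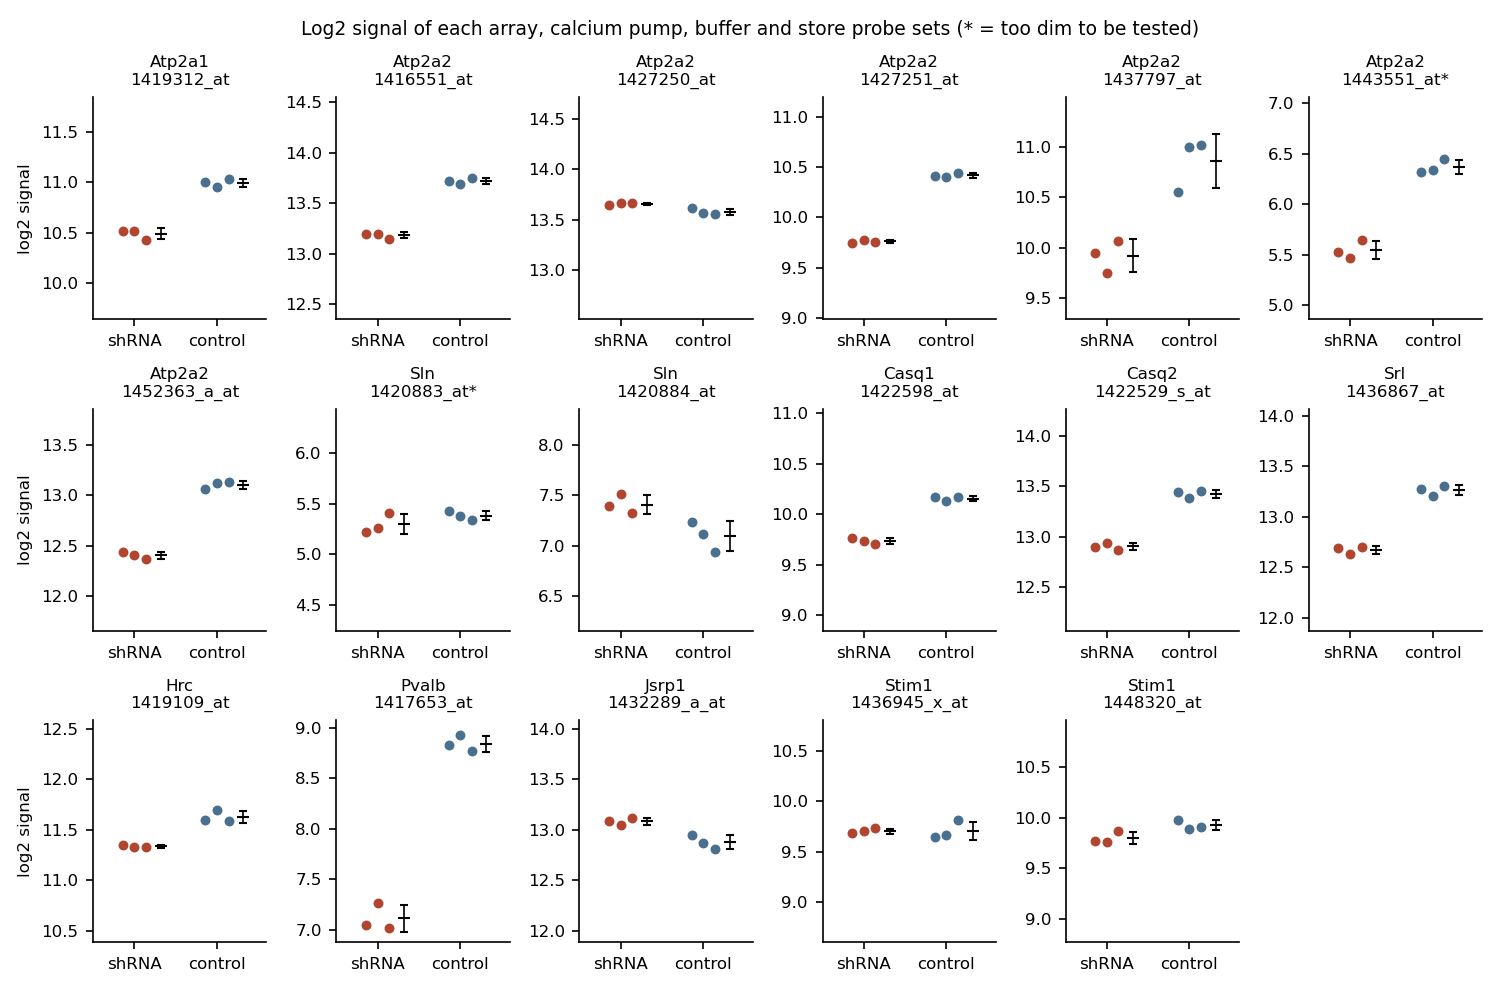
Log2 signal (vertical axes, each spanning 2.2 units) of every array for the 17 probe sets, with shRNA arrays left of control arrays. Points are single arrays, and bars beside them show the mean and SD of 3 arrays. Pvalb shows the widest gap between the groups, and in Atp2a2 the probe set 1427250_at stands alone among 6 in not being lower in shRNA arrays.

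The fast-muscle pump Atp2a1 fell. Its only probe set, 1419312_at, read 10.52, 10.52 and 10.43 in shRNA arrays, against 11.00, 10.95 and 11.03 in control arrays. The groups were 0.43 apart at their nearest arrays. The difference was -0.50 (SE 0.0495, limma adjusted p = 2.54e-06), which leaves 70.7% of the control signal on the linear scale.

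Atp2a2, the pump of slow and cardiac muscle and of other cells, was read by 6 probe sets that disagreed. On 1416551_at, annotated to a RefSeq mRNA, the signal was 13.20, 13.20 and 13.15 in shRNA arrays and 13.72, 13.69 and 13.75 in controls. The shRNA arrays were all lower, with a difference of -0.54 (SE 0.034, limma adjusted p = 4.5e-08). On 1452363_a_at the values were 12.44, 12.41 and 12.37 in shRNA arrays and 13.06, 13.12 and 13.13 in controls, a difference of -0.70 (SE 0.0366, limma adjusted p = 1.01e-08). On 1427251_at they were 9.75, 9.78 and 9.76 in shRNA arrays and 10.41, 10.40 and 10.44 in controls, or -0.65 (SE 0.0522, limma adjusted p = 3.79e-07). These 3 probe sets fell by similar amounts with little spread inside a group. The fourth, 1437797_at, scattered more, with 9.95, 9.75 and 10.07 in shRNA arrays and 10.55, 11.00 and 11.02 in controls, a difference of -0.94 (SE 0.112, limma adjusted p = 1.43e-05). Control array 1 was the lowest of its group there, yet lay above every shRNA array.

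The dim probe set 1443551_at of Atp2a2 was left out by the signal filter. It read 5.53, 5.47 and 5.65 in shRNA arrays and 6.32, 6.34 and 6.45 in controls, so the groups did not overlap. Fitted without the filter it differed by -0.82 (limma adjusted p = 9.85e-05). The exception was 1427250_at, at 13.64, 13.66 and 13.66 in shRNA arrays and 13.61, 13.56 and 13.55 in controls. Here the shRNA arrays lay above the controls by 0.03 at the nearest, and the difference of 0.08 (SE 0.0324, 95% interval 0.01 to 0.15) missed the threshold (limma adjusted p = 0.057). It passed with quantile normalization (0.09, limma adjusted p = 0.00828), with 60% of probe sets left out (0.08, 0.0452) and without control array 1 (0.10, 0.0276), over a range of 0.00828 to 0.693 across 13 alternatives. Within each array, 1427250_at minus each of the other 5 Atp2a2 probe sets was higher in the shRNA samples, by 0.62 to 1.01 (exact permutation test, two-sided, p = 0.1 each, the smallest possible), a comparison chosen after the values were seen. Which transcripts or strand each probe set reads was not analysed here.

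Whether the 2 pumps fell by different amounts therefore depends on the probe set. Atp2a1 minus Atp2a2 within an array differed by -0.58 between the groups with Atp2a2 on its brightest probe set (exact permutation p = 0.1). It differed by 0.04 with 1416551_at (exact permutation p = 0.1), chosen after the values were seen, and by 0.09 with the mean of all 6 probe sets (exact permutation p = 0.2).

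Sln encodes sarcolipin, the peptide that binds SERCA pumps and restrains calcium uptake. Its tested probe set, 1420884_at, read 7.39, 7.51 and 7.32 in shRNA arrays, against 7.23, 7.12 and 6.94 in control arrays. The shRNA arrays were all higher, by 0.09 at the nearest, and the difference was 0.31 (SE 0.114, limma adjusted p = 0.0353). The call is weakly held. It was lost without shRNA array 1 (0.32, limma adjusted p = 0.0608) or 2 (0.26, 0.129), without control array 2 (0.32, 0.068) or 3 (0.23, 0.138), with no signal filter (0.31, 0.0561) and with the arrays centred on their medians (0.25, 0.0698). Over 12 alternatives the adjusted p ran from 0.0178 to 0.138. The second Sln probe set, 1420883_at, was too dim to be tested, at 5.22, 5.26 and 5.41 in shRNA arrays and 5.43, 5.38 and 5.34 in controls, and the groups overlapped.

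Within the same array, Sln and Atp2a1 changed unequally. Sln minus Atp2a1 was -3.13, -3.01 and -3.11 in shRNA arrays and -3.77, -3.83 and -4.08 in controls. The size of that value rests on the probes, and only its change of 0.81 can be read (exact permutation test, two-sided, p = 0.1, adjusted p = 0.1 over 5 pairs of genes, each at the smallest possible p). All 3 shRNA arrays lay above all 3 controls.

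The 2 other pump inhibitors of the list of calcium cycling genes were also higher. Pln, phospholamban, which restrains the cardiac and slow-muscle pump, read 12.45, 12.56 and 12.51 in shRNA arrays and 10.72, 10.79 and 10.89 in controls on its brightest probe set, a 3.27-fold difference (1.71, SE 0.0495, limma adjusted p = 8.94e-11). Its other 2 probe sets also rose, by 1.33 and 2.00. Mrln, myoregulin, a SERCA inhibitor of skeletal muscle, read 12.90, 12.97 and 12.96 in shRNA arrays and 12.79, 12.71 and 12.60 in controls (0.24, SE 0.0461, limma adjusted p = 0.000642). Both genes passed in each of the 13 alternatives that tested them.

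**Figure D2:**
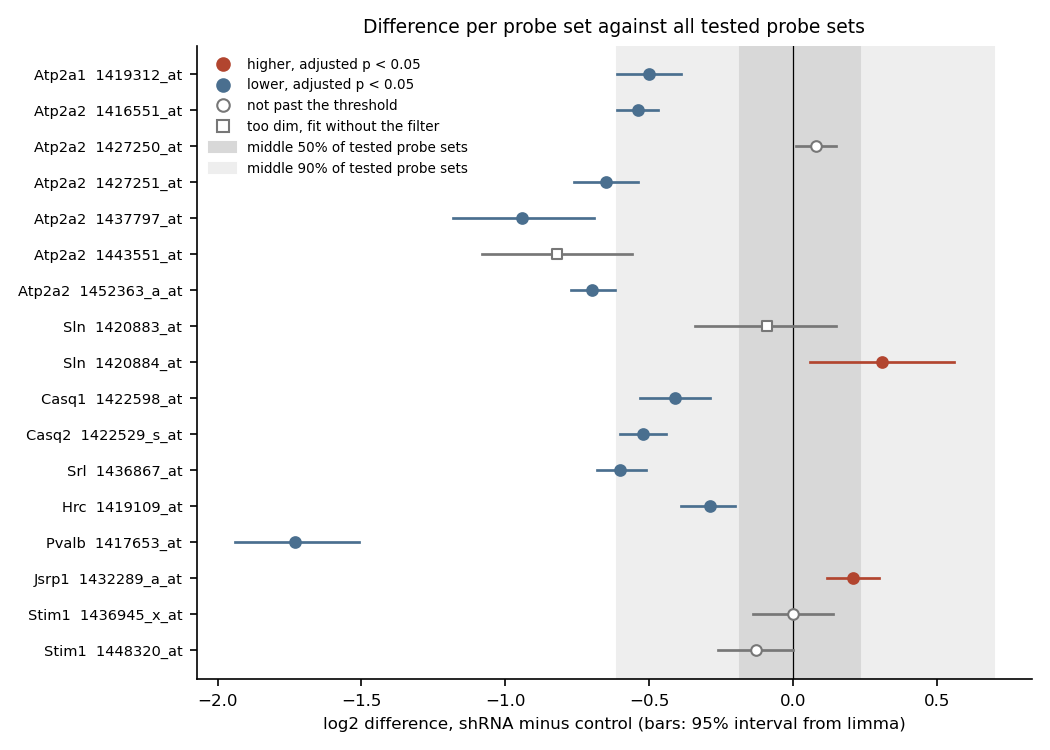
Log2 difference, shRNA minus control, of each probe set with limma's 95% interval, over bands that hold the middle 50% and 90% of all 27023 tested probe sets. Pvalb at -1.73 lies far left of both bands, whose outer edge is at -0.61, while the pump and store proteins cluster between -0.29 and -0.94, apart from 1 Atp2a2 probe set.

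The 4 store proteins all fell. Casq1, the calsequestrin of fast muscle, read 9.77, 9.74 and 9.71 in shRNA arrays and 10.17, 10.13 and 10.17 in controls. The difference was -0.41 (SE 0.0549, limma adjusted p = 3.43e-05). Casq2, the calsequestrin of cardiac and slow muscle, read 12.90, 12.94 and 12.87 in shRNA arrays and 13.44, 13.38 and 13.45 in controls. It differed by -0.52 (SE 0.0358, limma adjusted p = 9.62e-08), on a probe set whose _s_at ending marks probes shared by several transcripts. In both calsequestrins each shRNA array lay below each control.

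Srl encodes sarcalumenin, a glycoprotein of the reticulum lumen that binds calcium and associates with the pumps. It read 12.69, 12.63 and 12.70 in shRNA arrays and 13.28, 13.21 and 13.31 in controls, so the groups were 0.52 apart at the nearest. The difference was -0.60 (SE 0.0386, limma adjusted p = 5.58e-08), or 66.1% of the control signal. Hrc, the histidine-rich calcium-binding protein of the store, read 11.35, 11.33 and 11.33 in shRNA arrays and 11.60, 11.70 and 11.59 in controls. It had the smallest of the decreases that passed, -0.29 (SE 0.0435, limma adjusted p = 8.64e-05), and here too the groups did not overlap.

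Casq1 minus Casq2 within an array was -3.13, -3.20 and -3.16 in shRNA arrays and -3.28, -3.26 and -3.28 in controls. That is a change of 0.11 (exact permutation test, two-sided, p = 0.1, the smallest possible), so Casq2 was lower by slightly more in the deposited values. With quantile normalization the change was 0.02 (exact permutation p = 0.4), and the 2 calsequestrins could then not be told apart in how far they fell.

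Pvalb, parvalbumin, the soluble calcium buffer that speeds relaxation of fast fibres, had the largest decrease of the 10 genes. It read 7.05, 7.27 and 7.02 in shRNA arrays and 8.83, 8.93 and 8.77 in controls and the groups lay far apart. Its shRNA signal was 30.2% of control (-1.73, SE 0.0996, limma adjusted p = 2.12e-08), and 99.7% of all tested probe sets changed less in size. Over 12 alternatives the difference stayed between -1.85 and -1.68. Pvalb minus Atp2a1 within an array changed by -1.23, with the groups apart (exact permutation test, two-sided, p = 0.1, the smallest possible).

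Jsrp1 encodes JP-45, a membrane protein of the junctional reticulum that binds the voltage sensor and calsequestrin. Its probe set, 1432289_a_at, read 13.09, 13.05 and 13.12 in shRNA arrays, against 12.95, 12.87 and 12.81 in controls. It was thus higher, with 0.09 between the nearest arrays, unlike the calsequestrins with which its protein is joined. The difference of 0.21 (SE 0.0418, limma adjusted p = 0.000939) passed in each of 13 alternatives (0.15 to 0.25).

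Stim1, the sensor in the reticulum membrane that opens ORAI channels when the store runs low, did not pass. Its probe set 1448320_at read 9.77, 9.76 and 9.87 in shRNA arrays and 9.98, 9.89 and 9.91 in controls. The groups were 0.02 apart and the difference was -0.13 (SE 0.0601, 95% interval -0.26 to 0.00, limma adjusted p = 0.0921). It passed with the arrays centred (-0.19, limma adjusted p = 0.0118) and with quantile normalization (-0.19, 0.0112), and not in the other 11 alternatives (0.0634 to 0.24). The other probe set, 1436945_x_at, read 9.68, 9.70 and 9.73 in shRNA arrays and 9.64, 9.66 and 9.81 in controls, and the groups overlapped (limma adjusted p = 0.997, 95% interval of the difference -0.14 to 0.14). Stim1 minus Atp2a1 within an array was 0.37 higher in the shRNA samples, with the groups apart (exact permutation test, two-sided, p = 0.1, the smallest possible).

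**Figure D3:**
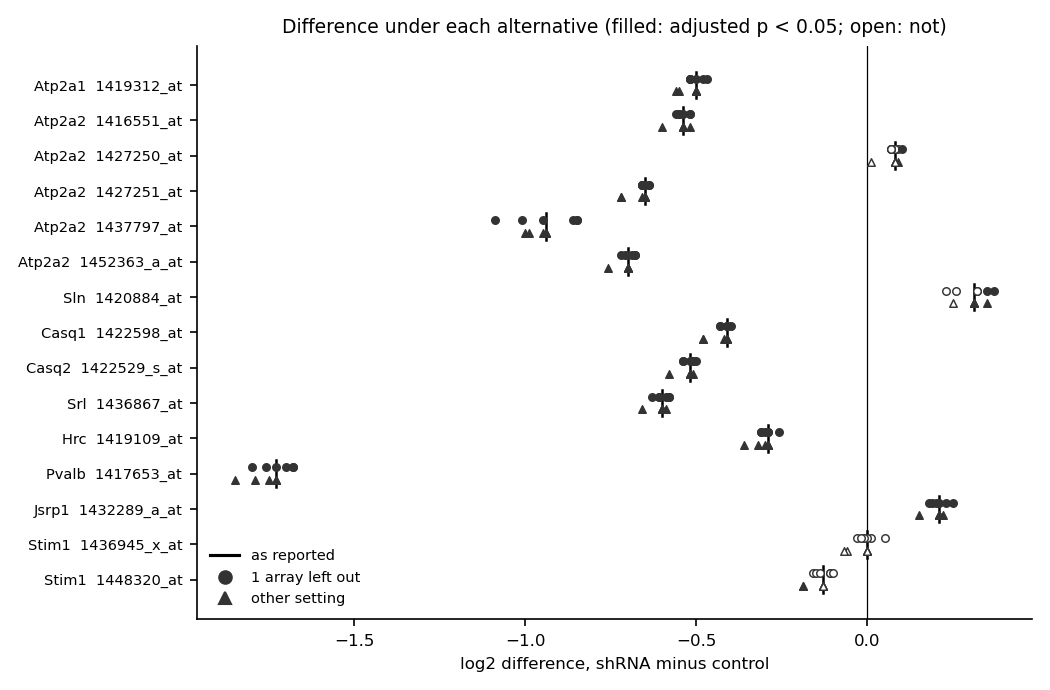
Log2 difference, shRNA minus control, of the 15 tested probe sets under each alternative, with circles for 1 array left out, triangles for other settings and a vertical bar for the reported value. Filled symbols passed an adjusted p of 0.05. The 10 decreases stay filled throughout, while Sln and Atp2a2 1427250_at hold a mix of filled and open symbols.

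Arrays of the 2 groups did not overlap in 14 of the 15 tested probe sets, against 59.5% of all tested probe sets. The shRNA arrays lay below in 11 of them and above in 3, against 25.9% and 33.6% of all tested probe sets. On the brightest probe set of each gene the groups were apart in all 10, against 64.8% of all genes, with the shRNA arrays below in 7 and above in 3, against 25.5% and 39.2% of all genes. The median pooled SD within groups of the 15 was 0.0458, against 0.0833 over all tested probe sets. Most of the 15 were far brighter than the array median of 7.23, and none of these comparisons was matched for brightness. The 10 genes lie on 8 chromosomes (1, 3, 5, 7, 9, 10, 15 and 16), with Atp2a1, Hrc and Stim1 sharing chromosome 7.

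The rest of the calcium cycling apparatus was read from a list of 60 other genes, of which 52 had a named probe set and 46 were tested on their brightest. Of these 22 were lower, 8 were higher and 16 did not pass, against 22.8% of all genes lower and 35.7% higher, and the median difference was -0.09, against 0.05 over all genes. Partners of the store proteins at the triad, where the surface membrane meets the reticulum, were mostly lower. On brightest probe sets, 8 of 13 tested genes of the release channel and triad fell, 0 rose and 5 did not pass, and of 5 genes of the voltage-sensing channel 4 fell and 0 rose. The count for the triad depends on that choice, since 4 of its genes (Asph, Fkbp1a, Tmem38b and Mtm1) had at least 1 dimmer probe set that rose, and Bin1, which did not pass, had 1 that fell. The median difference was small for the release channel and triad, at -0.15 on the log2 scale, and was -0.42 for the voltage-sensing channel. The release channel of skeletal muscle, Ryr1, fell by 0.26 on the log2 scale (limma adjusted p = 0.0037), and Cacna1s, its voltage sensor, fell by 0.47 (9.59e-06). The release channel isoform Ryr3 fell by 0.74 on the log2 scale (limma adjusted p = 2.34e-06), and the voltage sensor subunit Cacng1 fell by 0.60 (7.21e-07). Asph, whose locus also encodes junctin, a partner of calsequestrin, fell by 0.51 (limma adjusted p = 1.19e-06) on its brightest probe set, while 4 of its others fell and 1 rose.

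Calcium-binding proteins of the endoplasmic reticulum and Golgi that all cells use were lower in 7 of 10 cases on brightest probe sets. Of the others, 0 were higher and 3 did not pass, against 22.8% of all genes lower and 35.7% higher. The median difference of the 10 was small, at -0.16 on the log2 scale. Sdf4, among the 3 that did not pass, had 2 dimmer probe sets that rose. The chaperones Hspa5 (-0.72, limma adjusted p = 5.07e-09) and Hsp90b1 (-0.63, 4.87e-08) had the largest decreases of the 10, beside -0.52 for Casq2 and -0.60 for Srl.

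Genes of store-operated entry, the pathway that Stim1 starts, were higher in 4 of 6 cases on brightest probe sets and lower in 0. Increases were common here, with 35.7% of all genes higher and 22.8% lower. The other 2, Orai1 and Stim2, did not pass on theirs but each had a dimmer probe set that did, in opposite directions. The channel Orai3 rose to 10.73, 10.84 and 10.77 in shRNA arrays, against 10.02, 9.95 and 9.75 in controls (0.87, SE 0.0696, limma adjusted p = 3.7e-07). Orai2 rose by 0.25 (limma adjusted p = 0.00637), Stimate, a STIM activator, by 0.37 (0.0106) and Saraf, which limits STIM activity, by 0.21 (0.000354). Orai1, the main partner of Stim1 in muscle, averaged 10.74 in shRNA samples and 10.78 in controls on its brightest probe set (limma adjusted p = 0.463, and 0.0489 at a difference of -0.11 with the arrays centred). Its other probe set read 8.25, 8.33 and 8.08 in shRNA arrays and 8.95, 8.78 and 8.82 in controls, so there it fell, by 0.63 on the log2 scale (limma adjusted p = 7.38e-05). Stim2, a second store sensor, averaged 12.53 in shRNA samples and 12.51 in controls on its brightest probe set (limma adjusted p = 0.715). Its other probe set read 10.74, 10.81 and 10.89 in shRNA arrays and 10.52, 10.56 and 10.65 in controls, a difference of 0.24 (limma adjusted p = 0.00264). Of the inositol trisphosphate receptors, release channels outside the triad, Itpr2 rose on all 3 of its tested probe sets, by 0.72 on the brightest (limma adjusted p = 2.69e-05), and Itpr3 did not pass.

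**Figure D4:**
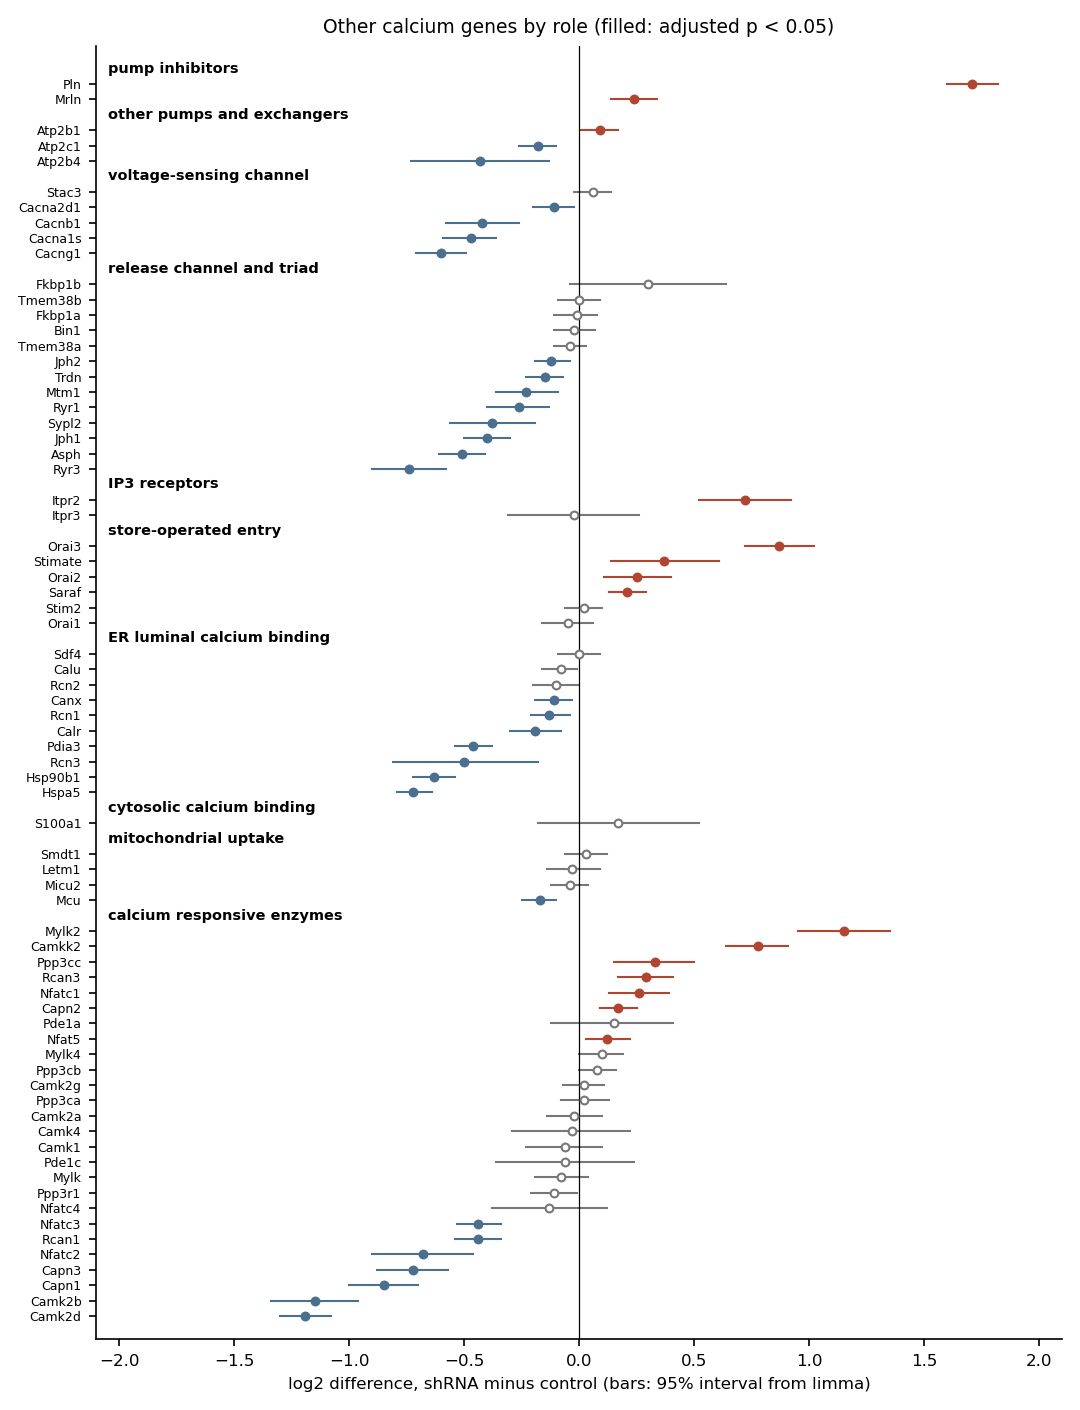
Log2 difference, shRNA minus control, with limma's 95% interval for 46 tested calcium cycling genes and 26 tested calcium-responsive genes, each on its brightest probe set. Genes are grouped by role, and the group of calcium-responsive enzymes also holds transcription factors and calcineurin regulators. Filled points passed an adjusted p of 0.05. On these probe sets, triad proteins and those labelled luminal lie at or left of 0 apart from points that did not pass, and Pln, at 1.71, lies farthest right.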

How the data were processed

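Each array gave 1 normalized log2 value per probe set in the table deposited by the authors. That the scale is log2 follows from the range, 4.475 to 14.64. PLIER and MAS5 are named in the submitters' processing notes, with neither role nor version. How background was corrected and which probe sets were detected is not given in the sources used here, so dim values have no floor to be set against. Names came from GEO's platform annotation (34958 of 45101 probe sets with 1 symbol, 932 with several, 9211 unnamed). Every value column belonged to a sample (0 did not).

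The 64 Affymetrix control probe sets and the dimmest 40% (18014) were left out. The rest were fitted with limma 3.58.1 in R 4.3.3 (lmFit, eBayes with a mean-variance trend), shRNA minus control without covariates, with Benjamini-Hochberg adjustment over 27023 probe sets. A gene stood as its brightest tested probe set, using _x_at only where it had no other. SE is limma's. Pairs of genes and 3' to 5' ratios had two-sided exact permutation tests over 20 assignments. The code was checked on simulated data. The labels call replicates biological without naming separate animals or cultures. The p-values therefore measure only how far these arrays scatter, which may be technical. The genes, lists and tests were chosen with earlier results of these data known. Named genes are all 10 members, plus the 5 largest increases and decreases per list that passed with no overlap of arrays. Mrln, Ryr1, Cacna1s, Saraf, Orai1, Stim2, Itpr3, Rcan1 and Nfatc3, and genes named only for disagreeing probe sets, were named after their values were seen. Alternatives changed the variance trend, filter, scaling, offset, block, probe set and the arrays used.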

Additional observations from a re-analysis of the deposited data

How the results depend on the processing

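For the 15 tested probe sets of the 10 genes, of 193 repeats under other settings 180 kept their direction and their side of the threshold, 6 lost the call (all Sln), 5 gained one (Atp2a2 1427250_at and Stim1 1448320_at) and 2 turned direction. Those 2 were Stim1 1436945_x_at, at 0.01 without shRNA array 1 and 0.05 without control array 3 (-0.03 to 0.05 over the 6 left-out arrays). Apart from Rcan1 and Nfatc3, the other calcium genes whose difference or group means are given were followed on brightest probe sets. Of these, Stim2 turned to -0.05 with the arrays centred, where it did not pass, and Orai1 passed in 1 of 13 settings. No other call or direction among them changed. Itpr3 and the genes named only for disagreeing probe sets were not among those followed. The 10 decreases passed in every setting that tested them. The count of probe sets or genes that rose was 2. It became 1 with no filter and with the arrays centred, and 3 with quantile normalization. For genes it was also 1 with _x_at, _s_at and _a_at probe sets left out, where Jsrp1 and Casq2 were not tested. Leaving out 1 array gave 1 to 3 that rose in both counts, with 10 probe sets and 6 genes lower each time. Genes that were lower numbered 7 with the arrays centred, with quantile normalization and with probe sets averaged. They numbered 5 of 8 with 60% of probe sets left out or without _x_at, _s_at and _a_at probe sets. Taking Atp2a2 on 1416551_at, added after seeing the data, also gave 7 genes lower. Atp2a1 minus Atp2a2, -0.58 as reported, was -0.64 with quantile normalization, 0.09 with probe sets averaged and 0.04 on 1416551_at. Casq1 minus Casq2 moved to 0.02 with quantile normalization, Sln minus Atp2a1 to 0.61 with probe sets averaged and Pvalb minus Atp2a1 to -1.35 with an offset of 16 removed. The cause of these moves was not tested. Without 1 array these 4 ran from -0.60 to -0.54, 0.09 to 0.12, 0.72 to 0.87 and -1.29 to -1.16. Calcium-responsive genes that fell numbered 7, and 4 of 20 without _x_at, _s_at and _a_at probe sets. Replicate numbers did not pair the arrays (correlations of deviations of -0.134, -0.061 and 0.031), and with the replicate number as a block 10 probe sets were lower and 2 higher, as without it; over all probe sets 7726 were higher and 5920 lower, against 8213 and 6352. The largest SEs of the 15 were 0.114 for Sln, which lay near the dim limit, and 0.112 for Atp2a2 1437797_at, which lay well above it.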

Other observations

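Calcium-responsive genes, a list of enzymes, Nfat transcription factors and Rcan regulators of calcineurin, moved both ways. Of 26 tested on their brightest probe set 7 rose, 7 fell and 12 did not pass (Ppp3cb, among these 12, had 2 dimmer ones that rose), beside 35.7% of all genes higher and 22.8% lower, with a median difference of -0.03. The calcium/calmodulin-dependent kinase subunits Camk2d and Camk2b fell. Camk2d read 10.83, 10.96 and 10.99 in shRNA arrays and 12.12, 12.07 and 12.16 in controls (-1.19, SE 0.0496, limma adjusted p = 1.88e-09), and all 5 of its tested probe sets fell. Camk2b read 7.77, 7.59 and 7.65 in shRNA arrays and 8.84, 8.76 and 8.85 in controls (-1.15, limma adjusted p = 2.34e-07). The calcium-activated proteases Capn1 (-0.85, limma adjusted p = 3.84e-07) and Capn3 (-0.72, 2.66e-06) were also lower, as was Nfatc2 (-0.68, 9.86e-05), a transcription factor that calcineurin activates.

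Mylk2, the myosin light chain kinase of skeletal muscle, rose to 8.47, 8.40 and 8.41 in shRNA arrays, against 7.24, 7.37 and 7.22 in controls (1.15, SE 0.0923, limma adjusted p = 3.83e-07). Camkk2, a kinase of calmodulin-dependent kinases, rose on all 4 tested probe sets, by 0.78 on the brightest (limma adjusted p = 3.69e-07). Smaller increases were those of the calcineurin subunit Ppp3cc (0.33, limma adjusted p = 0.00419), the calcineurin regulator Rcan3 (0.29, 0.000523) and Nfatc1 (0.26, 0.00297). The other probe sets of Ppp3cc (0.13, limma adjusted p = 0.46) and Rcan3 (0.09, 0.545) did not pass. Of the same families, Rcan1 (-0.44, limma adjusted p = 4.75e-06) and Nfatc3 (-0.44, 1.99e-06) fell.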
